A study of Rattus norvegicus with 18 samples.

Results

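The ganglia of rats in a neuropathic pain model that received a herbal decoction were compared with those of control rats that received solvent, to ask how far the treated model ganglia lay from control. The comparison used 6 of the 18 libraries of the study, chosen by their labels: the 3 of the group NPP_herb (disease state NPP, treatment herb) and the 3 of the group Ctrl_solvent (disease state Ctrl, treatment solvent). All 6 came from rat dorsal root ganglion and were sequenced as messenger RNA on an Illumina NovaSeq instrument. The series text names the herb as Shentong Zhuyu decoction, a preparation of 12 ingredients, and the model as one of neuropathic pain. NPP is not spelled out in the labels, and the lesion, the dose, the time of sampling, the strain, the age and the ganglia taken are not stated in the sources used. NPP_herb and Ctrl_solvent differ in both the model and the treatment, so within this pair the model and the treatment cannot be told apart. For that reason the values of NPP_solvent (model given solvent) and Ctrl (disease state and treatment both labelled Ctrl), 3 libraries each, are set beside them. Of the 25678 genes in the count table, 17043 passed a filter on low counts and were tested. Levels are in counts-per-million units (CPM, reads of a gene scaled to library size) in replicates 1, 2 and 3 in that order, means are ± SD with n = 3, and differences are log2 fold changes of NPP_herb minus Ctrl_solvent ± SE. Chromosomes are those given in the count table, which lists no start or end. Nothing in the labels ties the 3 libraries of a group to different animals, and the p-values therefore describe the spread between samples, part of which may be technical.

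A dorsal root ganglion holds the cell bodies of the sensory neurons of a spinal nerve, among them nociceptors, wrapped by satellite glia, with Schwann cells, vessels, fibroblasts and resident macrophages around them. After damage to their axons these neurons switch on a regeneration program led by the transcription factor Atf3 and release neuropeptides such as Npy and Gal, while macrophages and, later, lymphocytes gather in the ganglion. Interferons act through Irf factors, among others, on a shared set of antiviral genes, and interferon gamma from lymphocytes also raises antigen presentation and the chemokines that draw in more T cells. At 1 CPM or more in each of the 6 libraries stood 24 of 27 nociceptor, 19 of 20 large-diameter neuron, 15 of 15 satellite glia and 16 of 16 myelinating Schwann cell markers. Of markers from outside the ganglion, 2 of 15 spinal cord, 2 of 15 skeletal muscle, 2 of 10 adipocyte and 7 of 21 red blood cell genes did, and skeletal muscle markers summed to between 152 and 322 CPM in the 6 libraries.

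The control group was not uniform. Ctrl_solvent replicates 1 and 3 carried high levels of interferon, T cell, antigen presentation and macrophage genes, and replicate 2 did not. The summed level of the 44 tested interferon-stimulated genes was 5306, 900.5 and 4355 CPM in Ctrl_solvent replicates 1, 2 and 3. It was 1113, 1059 and 943 CPM in NPP_herb, 3338, 3229.9 and 828 in NPP_solvent, and 1047, 1036 and 884 in Ctrl. Depth ran from 18170925 to 36885633 reads over the 6 libraries, and the deepest was Ctrl_solvent replicate 2. Mitochondrial genes took 8.01% to 9.72% of reads in Ctrl_solvent and 10.7% to 11.5% in NPP_herb. Hemoglobin genes took 0.00123%, 0.0743% and 0.000455% in Ctrl_solvent and 0.0134%, 0.0186% and 0.0750% in NPP_herb, so the pair of control libraries with high immune genes had the least of them. The part of depth, of the mitochondrial share and of the hemoglobin share in the results below was not tested. Results that rest on Ctrl_solvent replicates 1 and 3 are therefore given also against replicate 2 alone, an alternative chosen after seeing the data in which the lone control library is assumed to vary like the other groups.

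EdgeR's quasi-likelihood test, with Benjamini-Hochberg adjustment over all 17043 genes, called 0 genes different between NPP_herb and Ctrl_solvent (0%), and the smallest adjusted p was 0.275. At an unadjusted p under 0.05 there were 1200 genes, 879 lower in NPP_herb (5.16%) and 321 higher (1.88%). The groups did not overlap in 854 genes that were lower in NPP_herb (5.01%) and in 731 that were higher (4.29%). Among the 1200, genes on the lower side differed by more: their median absolute log2 fold change was 1.23, against 0.43 on the higher side and 0.15 over all genes. Their median level was also lower, at 6.58 CPM against 17.4 and 14.6, and genes of few reads need a larger difference to reach a given p. Selection by p itself lifts both sides above the value of all genes. DESeq2 called 151 genes, 148 lower and 3 higher, while limma-voom and limma on the deposited FPKM table called 0, with 803 and 1250 genes at an unadjusted p under 0.05. The same edgeR fit called 0 genes (0%) for NPP_solvent against Ctrl_solvent, with 937 at an unadjusted p under 0.05 (683 lower, 254 higher), and 0 genes (0%) for NPP_herb against NPP_solvent, with 319 (164 lower, 155 higher). DESeq2 called 40 and 1 genes in these comparisons, and limma-voom and limma on FPKM called 0 in both. The comparisons of NPP_herb and of NPP_solvent with Ctrl_solvent share their control libraries, so their values are set side by side and no agreement between them is read.

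How many genes differed depended on which control libraries were used, as the plot of gene counts by choice of libraries shows. Without Ctrl_solvent replicate 2, edgeR called 355 genes, 328 lower and 27 higher, and 1888 had an unadjusted p under 0.05. Without replicate 1 the latter count was 621, and with replicate 2 as the only control it was 413, of which 193 were lower and 220 higher, with 0 called. With Ctrl in place of Ctrl_solvent, 0 genes were called and 2509 had an unadjusted p under 0.05, 1238 lower and 1271 higher. In Ctrl the Y-linked gene Eif2s3y had 3006, 1 and 0 reads, while it had 2180 to 4411 in all 6 libraries compared here, so those groups also differ in a way the labels do not name.

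**Figure D1:**
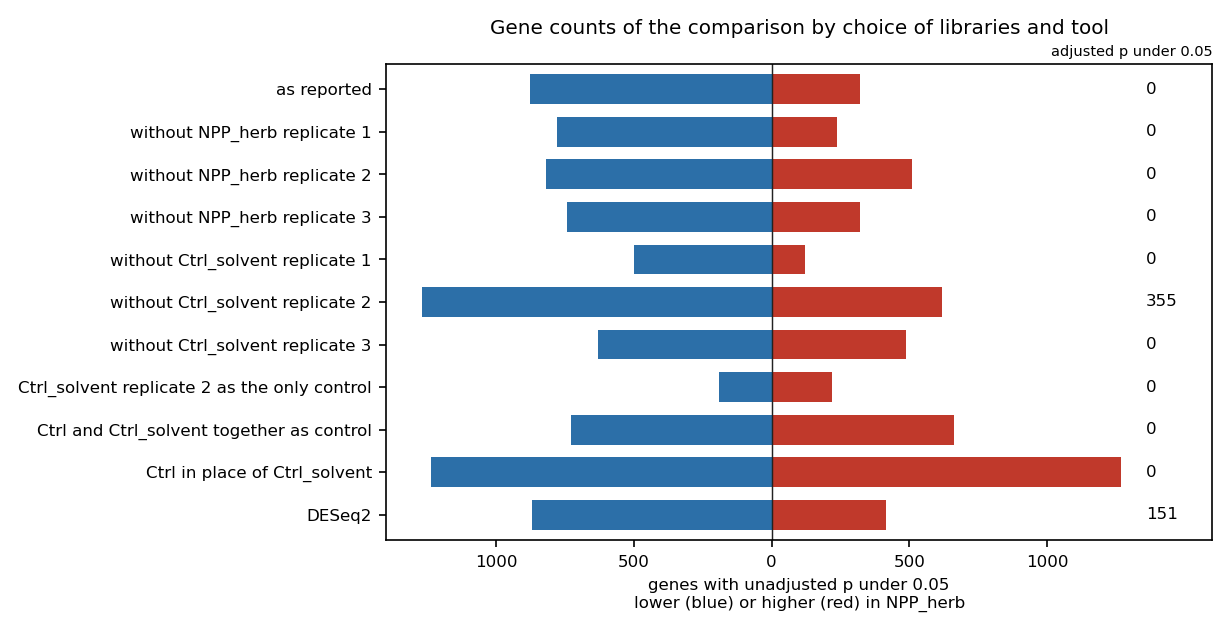
Number of genes with an unadjusted p under 0.05 that were lower (blue bars, to the left) or higher (red bars, to the right) in NPP_herb, for the comparison as reported and with libraries left out or replaced, or with DESeq2. The numbers at the right give the genes with an adjusted p under 0.05: 355 without Ctrl_solvent replicate 2, 151 with DESeq2 and 0 in the other settings shown.

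As whole profiles, the groups did not lie apart by more than the spread between libraries by an exact test. The root-mean-square difference in log2 CPM over all tested genes averaged 0.721 for the 9 pairs between the groups and 0.676 for the 6 pairs within them, a difference of 0.0448 (exact permutation test, two-sided, p = 0.7, where 0.1 is the smallest p that 3 against 3 libraries allow). Ctrl_solvent replicate 2 lay at 0.593, 0.617 and 0.533 from the NPP_herb libraries, and at 0.782 and 0.798 from Ctrl_solvent replicates 1 and 3. The nearest control pair was replicates 1 and 3, at 0.560. These lay at 0.730 to 0.853 from the NPP_herb libraries, which were 0.612 to 0.685 from each other. Without Ctrl_solvent replicate 1 the difference was -0.00498, and without replicate 2 it was 0.172 (exact permutation test, p = 0.1, the smallest these libraries allow), so this measure depends on which control libraries are used.

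Across 31 gene lists covering the cells and responses of the ganglion, the 6 lists with the lowest medians were of immune cells or immune responses. The plot of list members by log2 fold change shows them at the bottom, followed by the cell cycle, with the neuronal, glial and vascular lists near 0. Because no gene passed the test, the number of members that passed was 0 in every list, and the counts below are of signs, of unadjusted p under 0.05 and of groups that did not overlap.

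**Figure D2:**
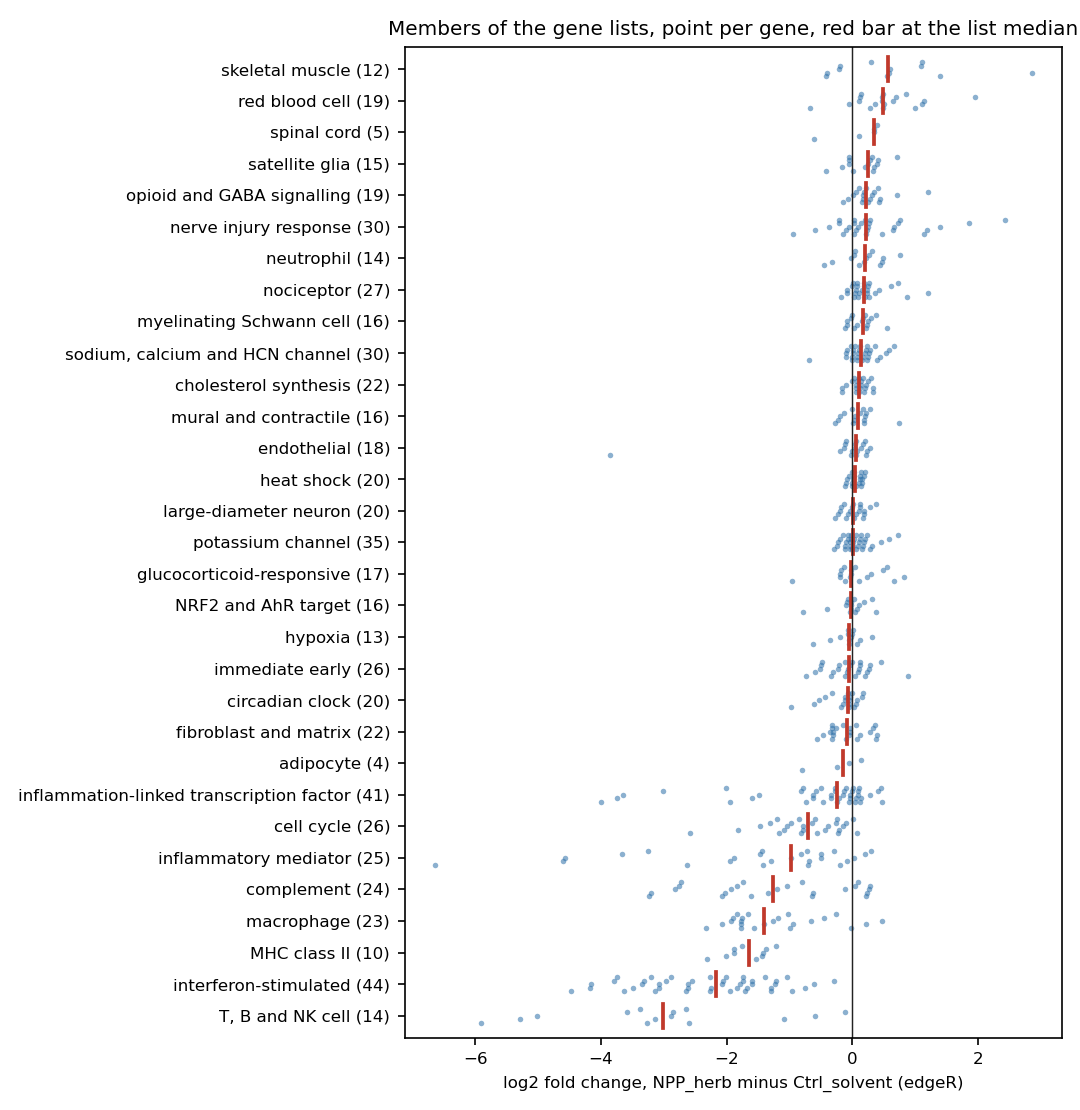
Log2 fold change of NPP_herb minus Ctrl_solvent (horizontal axis) for every tested member of 31 gene lists (points, number of tested members in brackets), sorted by the list's median (red bar). Medians run from -3.01 for T, B and NK cell genes to 0.57 for skeletal muscle genes, and all 44 interferon-stimulated genes lie below 0.

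Interferon-stimulated genes lay lower in NPP_herb than in the mean of Ctrl_solvent throughout. All 44 tested members had a negative log2 fold change, where 52.2% of all tested genes did, with a median of -2.16 against -0.01 over all genes. Of the 44, 35 were lower in NPP_herb at an unadjusted p under 0.05, where 5.16% of all genes were, and in 5 the groups did not overlap, where 5.01% of all genes were lower without overlap. Isg15 (chromosome 5), a ubiquitin-like protein attached to other proteins after interferon, was at 203, 3.95 and 119 CPM in Ctrl_solvent and at 5.43, 5.35 and 4.0 in NPP_herb. The difference (-4.47 ± 1.53, edgeR adjusted p = 0.464) rested on Ctrl_solvent replicates 1 and 3, since replicate 2 lay below all 3 NPP_herb libraries, and the means were 109 ± 99.96 and 4.93 ± 0.806 CPM. Irf7 (chromosome 1), the transcription factor that amplifies the interferon response, was at 252, 9.04 and 182 CPM against 10.8, 9.98 and 12.3 (-3.74 ± 1.34, adjusted p = 0.501). Gbp2, a GTPase that attacks membranes around intracellular microbes, was at 376, 21.8 and 409.6 CPM against 36.7, 19.96 and 22.4, and Zbp1, a sensor of viral nucleic acid, at 19.7, 0.379 and 15.8 against 0.806, 0.39 and 0.742. Cmpk2, a nucleotide kinase of mitochondria induced by interferon, was at 89.5, 23.9 and 61.5 CPM against 26.3, 22.5 and 25.5. In each of these the NPP_herb libraries lay close together and near Ctrl_solvent replicate 2. Against replicate 2 alone the list's median was 0.31, and Isg15 and Irf7 were at 0.32 and 0.31.

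NPP_solvent split in another way. Isg15 was at 108, 123 and 2.01 CPM and Irf7 at 126, 161 and 8.07 in its 3 libraries, so 2 of them resembled the high control libraries and the third resembled NPP_herb. The list's median was -0.59 for NPP_solvent minus Ctrl_solvent, with 1 of 44 members at an unadjusted p under 0.05 (4.01% of all genes were lower at that p), and -1.50 for NPP_herb minus NPP_solvent, with 14 members lower at an unadjusted p under 0.05 (0.962% of all genes) and 0 higher. In Ctrl, Isg15 was at 3.43, 3.78 and 2.12 CPM and Irf7 at 8.18, 8.1 and 7.15, and the median of NPP_herb minus Ctrl was 0.35. Beside the low libraries of NPP_herb therefore stand those of Ctrl, Ctrl_solvent replicate 2 and NPP_solvent replicate 3.

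Many genes of this kind are known to carry the interferon-stimulated response element (ISRE), a short motif near the start to which Irf proteins bind. RefSeq promoters (build GRCr8, 250 bases before to 50 after the gene's start) were at hand for 31 of the 44 genes and were searched on both strands for a pair of GAAA separated by any 2 bases. The motif was in 21 of the 31 (67.7%), in 2.94% of the 12996 tested genes with a promoter, and in 3.77% of all 27457 promoters in the table. The gamma-activated site TTCNNNGAA, searched the same way, was in 7 of the 31 (22.6%), in 6.86% of tested genes and in 8.68% of all promoters. The ISRE was in 0 of 10 promoters of T, B and NK cell genes, 2 of 18 (11.1%) of macrophage genes, 0 of 8 of MHC class II genes, 0 of 14 of complement genes and 3 of 20 (15%) of inflammatory mediator genes. The gamma-activated site was in 20%, 16.7%, 0%, 7.14% and 30% of the promoters of these lists, in that order. It was thus not particular to the interferon list. A match describes these letters only. The sequences are 100 bases of 4 promoters with the motif, 5′ to 3′ on the gene's strand, with the ISRE in capitals, chosen because their genes lay low in NPP_herb and carry different functions: Irf7 (chr1:205800033-205800132, minus strand), the RNA-binding antiviral gene Ifit3 (chr1:241527242-241527341, plus strand), the nucleotide polymerase gene Oas1b (chr12:41395852-41395951, minus strand) and Socs1 (chr10:5389427-5389526, plus strand), an inhibitor of cytokine receptors.
Irf7: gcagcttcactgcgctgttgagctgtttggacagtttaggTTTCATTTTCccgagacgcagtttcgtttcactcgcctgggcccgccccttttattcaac
Ifit3: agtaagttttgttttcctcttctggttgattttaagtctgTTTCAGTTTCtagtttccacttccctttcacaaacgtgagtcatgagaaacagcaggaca
Oas1b: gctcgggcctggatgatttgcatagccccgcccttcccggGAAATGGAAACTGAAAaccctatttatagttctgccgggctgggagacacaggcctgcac
Socs1: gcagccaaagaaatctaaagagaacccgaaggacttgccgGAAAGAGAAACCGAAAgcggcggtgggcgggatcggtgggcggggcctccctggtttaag
The motif began 69 bases before the start of Irf7 and 44 before that of Ifit3, in both as its reverse complement. In Oas1b it began 59 and 53 bases before the start, and in Socs1 107 and 101 bases before, as overlapping pairs in each. Ifit3 was at 74.8, 1.6 and 42.3 CPM in Ctrl_solvent against 3.12, 2.23 and 1.4 in NPP_herb, and Oas1b at 38.1, 4.84 and 29.3 against 4.84, 2.45 and 4.37. Oas1b and the Ifit genes have near-identical neighbours in their families, so reads may be shared among copies. Socs1, at 5.41, 1.68 and 4.64 CPM against 0.269, 0.502 and 1.14, was among the genes with the smallest unadjusted p of the comparison (-2.52 ± 0.50, edgeR adjusted p = 0.275), and its groups did not overlap. Against Ctrl_solvent replicate 2 alone it was at -1.30.

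**Figure D3:**
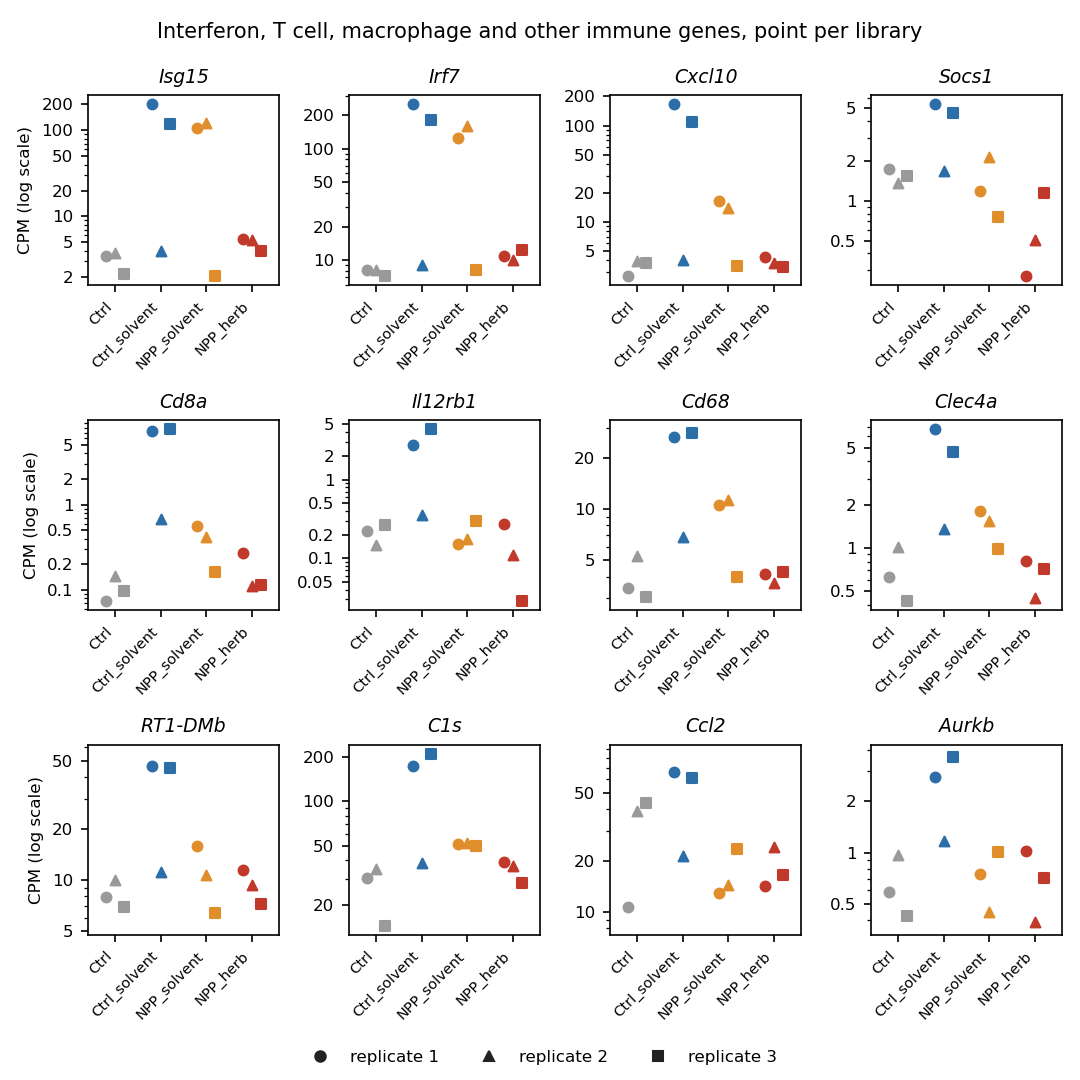
CPM (vertical axis, log scale, a different range in each panel) of 12 genes in each library of Ctrl, Ctrl_solvent, NPP_solvent and NPP_herb, with the marker shape giving the replicate. In every panel Ctrl_solvent replicates 1 and 3 lie above Ctrl_solvent replicate 2 and above all NPP_herb libraries, as for Cd68 at 26.3 and 28 CPM against 3.68 to 4.28.

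Lymphocyte genes gave the lowest median of all lists. Of 22 markers of T, B and NK cells, 14 passed the filter, and all 14 had a negative log2 fold change with a median of -3.01. Of these, 12 had an unadjusted p under 0.05 and 7 had groups that did not overlap, lower in NPP_herb. Over all tested genes, 5.16% were lower at that p and 5.01% were lower without overlap. A rare marker passes the filter if it is high in any 1 of the 6 groups, so the 14 do not stand for the whole list, and their count and median describe only these genes. Cd8a (chromosome 4), the co-receptor of cytotoxic T cells, was at 7.41, 0.676 and 7.79 CPM in Ctrl_solvent and 0.269, 0.112 and 0.114 in NPP_herb, with means of 5.29 ± 4.0 and 0.165 ± 0.090 (-5.01 ± 1.06, edgeR adjusted p = 0.275). Cd3e, a chain of the T cell receptor complex, was at 4.17, 0.325 and 3.81 CPM against 0, 0.0558 and 0.0571, which is 176 reads in the control libraries and 3 in NPP_herb. Cd3g, another chain of that complex, was at 4.44, 0.406 and 4.59 CPM against 0.376, 0.223 and 0.285, and the T cell chemokine Ccl5 at 11, 1.3 and 15.4 against 0.591, 1.51 and 0.799. The B cell receptor gene Cd79a, at 1.68, 2.19 and 0.919 CPM against 1.5, 0.335 and 2.48, did not separate the groups. Il12rb1 (chromosome 16), the receptor subunit through which T and NK cells sense interleukin 12, had the smallest unadjusted p of all tested genes, at 2.76, 0.352 and 4.42 CPM against 0.269, 0.112 and 0.0285 (-4.30 ± 0.85, adjusted p = 0.275). Ctrl_solvent replicate 2 lay above the highest NPP_herb library in Cd8a, Cd3e, Cd3g and Il12rb1, yet well below replicates 1 and 3. Against replicate 2 alone, where 17 markers passed the filter, the list's median was -0.55, with Cd8a at -2.04 and Il12rb1 at -1.46.

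In NPP_solvent, Cd8a was at 0.561, 0.416 and 0.163 CPM and Cd3e at 0, 0.0694 and 0.0272, and the list's median was -3.14 for NPP_solvent minus Ctrl_solvent and -0.08 for NPP_herb minus NPP_solvent. The median of NPP_herb minus Ctrl was 0.00 on the log2 scale. Summed over the list, levels were 87.4, 33.9 and 99.7 CPM in Ctrl_solvent, 28.4, 27.8 and 23.7 in NPP_herb, 28.5, 28.8 and 20.9 in NPP_solvent, and 22.7, 30.0 and 16.7 in Ctrl. Cd4 made up most of the sum in every NPP_herb library and in Ctrl_solvent replicate 2. Rat macrophages carry Cd4 too, and its levels are given with the macrophage genes, so the sums do not stand for lymphocytes alone. The other 8 markers did not pass the filter in these libraries. In bulk tissue, fewer cells of a type and less RNA per cell cannot be told apart, here and for the other cell types below.

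Macrophage genes lay lower too, by a smaller amount. Of 23 markers 21 had a negative log2 fold change (median -1.40), 15 had an unadjusted p under 0.05, all lower, and 7 had groups that did not overlap. Among all tested genes the shares were 5.16% lower at that p and 5.01% lower without overlap. Cd68 (chromosome 10), a lysosomal protein of macrophages, was at 26.3, 6.87 and 28 CPM in Ctrl_solvent and 4.14, 3.68 and 4.28 in NPP_herb, with means of 20.4 ± 11.7 and 4.03 ± 0.314 (-2.33 ± 0.54, edgeR adjusted p = 0.275). Aif1, an actin-binding protein of macrophages, was at 80.5, 14.9 and 62.9 CPM against 17.8, 19 and 9.68, and the endotoxin co-receptor Cd14 at 11.5, 3.17 and 14 against 3.6, 3.01 and 1.91. In both, Ctrl_solvent replicate 2 lay within the range of NPP_herb. The members did not all follow this. The resident macrophage markers Lyve1 and Cd163, a hyaluronan receptor and a hemoglobin scavenger receptor, overlapped between the groups, at 1.95, 5.41 and 2.36 and 5.09, 7.82 and 3.37 CPM in Ctrl_solvent against 5.11, 3.35 and 5.28 and 5.21, 2.79 and 5.62 in NPP_herb. Cx3cr1, the fractalkine receptor, and Trem2, a lipid-sensing receptor, overlapped too, at -0.02 and 0.23 on the log2 scale. Other genes of macrophages had a gap to all 3 control libraries, and of these Csf1r, Cd4 and Mrc1 were picked out after their values were seen. Folr2, a folate receptor of resident macrophages, was at 9.9, 5.41 and 7.87 CPM against 3.82, 2.95 and 2.05 (-1.40 ± 0.30, adjusted p = 0.275). Csf1r, the receptor for the survival factor of macrophages, was at 36.3, 32.9 and 40.3 CPM against 24.7, 21 and 23.9. The mannose receptor Mrc1 was at 17, 17.5 and 16.8 CPM against 11.1, 10.4 and 15.9, and Cd4, which rat macrophages carry as well as helper T cells, at 31.3, 25.2 and 32.6 against 22.4, 19.8 and 16.6. In these 4 genes all NPP_herb libraries lay below all Ctrl_solvent libraries, with NPP_solvent at 24.9, 24.9 and 23.8 CPM and Ctrl at 16.7, 25.6 and 17 for Csf1r. The list's median was -0.83 for NPP_solvent minus Ctrl_solvent, -0.20 for NPP_herb minus NPP_solvent and 0.14 for NPP_herb minus Ctrl, and -0.15 against Ctrl_solvent replicate 2 alone.

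Further myeloid genes stood among the 12 genes that the naming rule gave on the lower side, which are those with the smallest unadjusted p among genes with a mean of at least 1 CPM and groups that do not overlap. Clec4a (chromosome 4), a lectin receptor of dendritic cells and macrophages, was at 6.76, 1.35 and 4.64 CPM against 0.806, 0.446 and 0.714 (-2.67 ± 0.53, edgeR adjusted p = 0.275). Nfam1, a receptor of myeloid and B cells, was at 10.9, 3.06 and 12.7 CPM against 2.1, 2.17 and 2.23 (-2.03), and Hcls1, a cytoskeletal adaptor of blood cells, at 17.6, 4.44 and 20.1 against 3.28, 2.95 and 1.88 (-2.38). The lysosomal growth factor progranulin, Grn, was at 141, 69 and 116 CPM against 60.3, 61.4 and 57 (-0.87 ± 0.19, adjusted p = 0.275). Il18bp, the secreted inhibitor of interleukin 18, was at 28.1, 4.52 and 29.2 CPM against 3.98, 2.79 and 2.0 (-2.83), and Tnfaip2, a gene induced by tumour necrosis factor, at 7.57, 4.28 and 7.35 against 2.31, 2.29 and 3.48 (-1.23). The phosphatase gene Ppm1n was at 3.52, 1.41 and 2.76 CPM against 0.699, 0.613 and 0.285 (-2.29). With Il12rb1, Socs1, Folr2, Cd8a and Cd3e, these make up the 12, all with an adjusted p of 0.275. Ctrl_solvent replicate 2 was the lowest control library in all 12, and against it alone the log2 fold changes of Clec4a, Nfam1, Hcls1, Il18bp, Tnfaip2, Ppm1n and Grn were -1.02, -0.48, -0.71, -0.63, -0.64, -1.43 and -0.20. The negative sign of these values was fixed by the choice of genes without overlap, and only their size is informative.

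Antigen presentation by MHC class II, through which macrophages, dendritic and B cells show peptides to helper T cells, lay lower in all 10 tested genes (median -1.64). Of these, 9 had an unadjusted p under 0.05 and 3 had groups that did not overlap. Over all genes 5.16% were lower at that p and 5.01% lower without overlap. RT1-DMb, which helps to load peptides, was at 46.3, 11.1 and 45.4 CPM in Ctrl_solvent against 11.4, 9.37 and 7.19 in NPP_herb, and its partner RT1-DMa at 26.5, 10.1 and 24.9 against 8.12, 11.6 and 6.76. Ciita, the regulator that switches the MHC class II genes on, was at 5.68, 1.6 and 9.06 CPM against 1.24, 0.725 and 1.28, and RT1-DOa, a modulator of peptide loading, at 3.68, 1.0 and 2.19 against 0.322, 0.613 and 0.714. In Ciita and RT1-DOa the groups did not overlap, and in the DM genes Ctrl_solvent replicate 2 lay within the NPP_herb range. Summed levels were 1084, 277 and 1115 CPM in Ctrl_solvent, 304, 378 and 178 in NPP_herb, 574, 206 and 120.3 in NPP_solvent and 180.0, 242 and 131 in Ctrl. The median was -1.67 for NPP_solvent minus Ctrl_solvent and -0.07 for NPP_herb minus NPP_solvent, 0.61 for NPP_herb minus Ctrl and -0.10 for NPP_herb against replicate 2 alone. Genes of chromosome 20, which holds the rat MHC, made up 62 of the 879 genes lower at an unadjusted p under 0.05 (7.05%) and 510 of all 17043 tested (2.99%). MHC genes are near-identical in sequence, so how their reads were divided is uncertain.

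Complement genes, which encode the plasma cascade that marks cells and microbes for removal, had a median of -1.27, with 18 of 24 negative, 15 lower at an unadjusted p under 0.05, and 9 without overlap lower against 1 higher. For all genes the shares were 5.16% lower at that p, and 5.01% lower and 4.29% higher without overlap. C1s and C1r, the proteases that start the classical pathway, were at 173, 38.3 and 209.8 and 217, 63.2 and 231 CPM in Ctrl_solvent. In NPP_herb they were at 39.1, 36.9 and 28.1 and 77.3, 63.9 and 60.7 CPM. Serping1, the inhibitor of both proteases, was at 269.7, 68.6 and 298 CPM against 74.6, 55.2 and 60.8. In these 3 genes Ctrl_solvent replicate 2 lay within the NPP_herb range. C6, a component of the membrane attack complex, was at 5.03, 2.22 and 5.25 CPM against 1.29, 1.51 and 1.28 and did not overlap. The median was -0.72 for NPP_solvent minus Ctrl_solvent, -0.32 for NPP_herb minus NPP_solvent, 0.33 for NPP_herb minus Ctrl and -0.16 for NPP_herb against replicate 2 alone.

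Inflammatory mediators, 25 of 32 of which passed the filter, had a median of -0.97 with 22 negative, 14 lower at an unadjusted p under 0.05 and 5 without overlap, all lower. Over all genes 5.16% were lower at that p and 5.01% lower without overlap. As with the lymphocyte genes, a rare mediator can pass the filter through a group where it is high. The counts and the median therefore describe only the 25 genes tested. Cxcl10 (chromosome 14), a chemokine induced by interferon gamma that attracts T cells, was at 168, 4.03 and 109.8 CPM in Ctrl_solvent and 4.35, 3.79 and 3.42 in NPP_herb (-4.61 ± 1.15, edgeR adjusted p = 0.295). Ccl2, which attracts monocytes, was at 66.2, 21.4 and 60.8 CPM against 14.2, 24.2 and 16.5 (-1.43 ± 0.52, adjusted p = 0.502). Both had Ctrl_solvent replicate 2 inside or next to the NPP_herb range, with log2 fold changes of -0.05 and -0.21 against that library alone. Tnf (chromosome 20), tumour necrosis factor, was low everywhere, at 1.41, 0.352 and 1.36 CPM against 0.161, 0.112 and 0, the latter 5 reads in all (-3.66 ± 1.03, adjusted p = 0.307). Its groups did not overlap, and against replicate 2 alone it was at -2.10. Ccl3, a chemokine of activated macrophages, was at 5.3, 0.298 and 5.82 CPM against 0.322, 0.558 and 0.314. The adhesion receptors Icam1 and Vcam1, which let leukocytes leave the blood, were at 20.7, 6.36 and 21 and 25.6, 12.3 and 36.3 CPM in Ctrl_solvent. They were at 6.83, 6.86 and 3.77 and 11.1, 9.92 and 9.33 CPM in NPP_herb, without overlap for Vcam1 only. Il1b, interleukin 1 beta, did not follow this order, at 2.65, 0.758 and 3.76 CPM in Ctrl_solvent and 1.72, 6.36 and 0.828 in NPP_herb, where replicate 2 was the highest of the 6. The neutrophil gene S100a8 was at 57.6, 21.4 and 14.9 CPM against 25.4, 35.7 and 34.5, and the 14 tested neutrophil genes had a median of 0.20 with 0 at an unadjusted p under 0.05. The median of the mediators was -1.04 for NPP_solvent minus Ctrl_solvent, 0.06 for NPP_herb minus NPP_solvent, 0.29 for NPP_herb minus Ctrl and 0.12 for NPP_herb against replicate 2 alone. Without Ctrl_solvent replicate 2 it was -1.71.

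**Figure D4:**
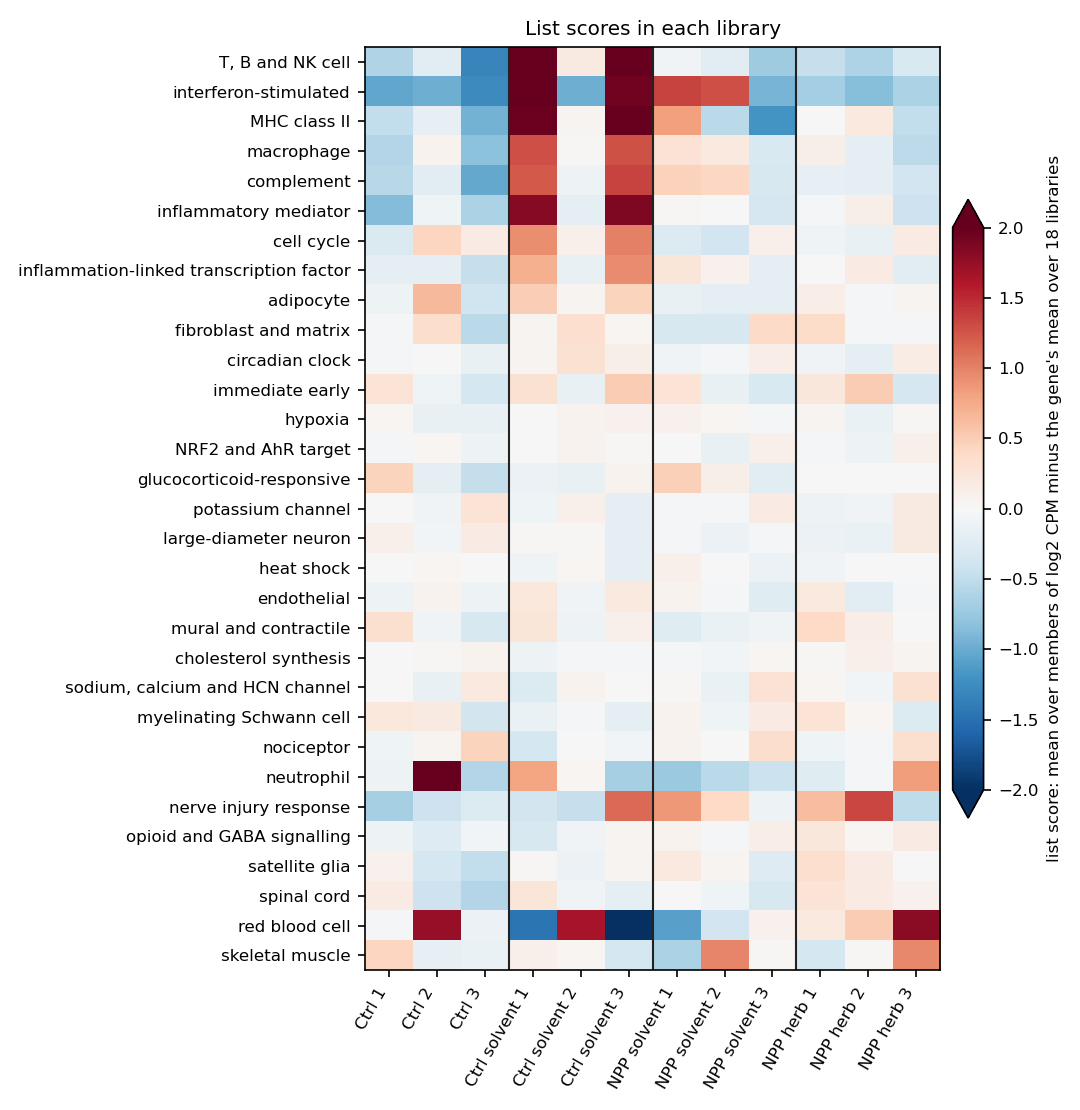
Score of each gene list (rows, in the order of their medians) in the libraries of 4 groups (columns), where each gene's log2 CPM was first centred on its mean over all 18 libraries and then averaged over the tested members, red for above and blue for below that mean. Ctrl_solvent 1 and 3 stand out in the immune lists at the top, NPP_solvent 1 and 2 in the interferon list, and Ctrl_solvent 3, NPP_solvent 1 and NPP_herb 1 and 2 in the nerve injury list.

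The series text asks about transcription factors, and a list of 41 inflammation-linked factors had a median of -0.24, with 28 negative, 10 lower and 1 higher at an unadjusted p under 0.05. Over all genes 5.16% were lower and 1.88% higher at that p. The 10 included factors of the interferon response and of immune cells. Irf1, induced by interferon gamma, was at 106, 9.88 and 105 CPM in Ctrl_solvent and 10.7, 8.53 and 8.22 in NPP_herb, and Irf8, a factor of macrophages and dendritic cells, at 25.5, 6.17 and 21.2 against 4.78, 4.85 and 3.45. Spi1, which directs the myeloid lineage, was at 9.31, 3.73 and 10.8 CPM against 3.28, 2.95 and 2.25. Ctrl_solvent replicate 2 lay inside the NPP_herb range for Irf1 and above it for Irf8 and Spi1. The list's median turned to 0.17 against replicate 2 alone and to 0.28 for NPP_herb minus Ctrl. Factors that most cells of the ganglion use overlapped between the groups. Nfkb1, a subunit of NF-kB, was at 30.6, 25.3 and 28.1 CPM against 26, 22 and 30.02, Stat3, which carries signals of the interleukin 6 family, at 238, 206 and 252 against 199, 201 and 227, and Cebpb at 8.98, 5.36 and 6.17 against 3.98, 6.41 and 3.0 (-0.62 ± 0.33, edgeR adjusted p = 0.779). Bcl6 (chromosome 11), a repressor of inflammatory genes, was the 1 higher factor, at 18.8, 18.8 and 19.99 CPM in Ctrl_solvent and 26.1, 25.6 and 27.8 in NPP_herb (0.46 ± 0.13, adjusted p = 0.31). Its groups did not overlap, the value against replicate 2 alone was 0.51 and with Ctrl as control 0.85, and it was at 19.9, 24.2 and 21.1 CPM in NPP_solvent and 16.7, 15.7 and 11.9 in Ctrl.

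Cell cycle genes lay low with the immune lists, with 24 of 26 negative, a median of -0.71, 9 lower at an unadjusted p under 0.05 and 6 without overlap, all lower. Among all genes 5.16% were lower at that p and 5.01% lower without overlap. The mitotic kinase Aurkb was at 2.76, 1.16 and 3.63 CPM in Ctrl_solvent and 1.02, 0.39 and 0.714 in NPP_herb. Ccna2, the cyclin of DNA synthesis, was at 2.11, 1.24 and 2.27 CPM against 0.645, 0.39 and 1.14, and Mcm5, part of the replicative helicase, at 6.98, 3.36 and 7.35 against 1.88, 3.29 and 2.54. Ube2c, which marks mitotic cyclins for destruction, was at 4.22, 1.54 and 4.51 CPM against 0.86, 1.28 and 1.48. In all 4 the groups did not overlap, and Ctrl_solvent replicate 2 was the lowest control library. The median was -1.004 for NPP_solvent minus Ctrl_solvent, 0.15 for NPP_herb minus NPP_solvent and -0.03 for NPP_herb against replicate 2 alone.

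Without Ctrl_solvent replicate 2 the members of these lists that edgeR called lower, where 1.89% of all genes were, were 8 of 44 for interferon, 12 of 19 for T, B and NK cells, 11 of 23 for macrophages, 3 of 10 for MHC class II, 10 of 24 for complement, 14 of 28 for mediators and 5 of 26 for the cell cycle. With DESeq2 on all libraries, where 0.868% of all genes were called lower, the counts were 4, 7 of 14, 3, 3, 6, 8 of 25 and 3. No list among these had a member called higher in either setting. Ctrl_solvent replicate 2 had the lowest score of the control libraries in each of these lists, so leaving it out favours calls on the lower side. The filter changed as well, with 19 T, B and NK cell genes tested in place of 14 and 28 mediators in place of 25. The counts without replicate 2 are therefore no separate support for a difference.

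The nerve injury response, the regeneration program of damaged sensory neurons, did not separate the groups. Of 30 genes 22 had a positive log2 fold change (median 0.21), 0 were lower and 1 higher at an unadjusted p under 0.05, and 0 had groups without overlap, against 1.88% of all genes higher at that p. Atf3 (chromosome 13) was at 15.9, 10.4 and 94.6 CPM in Ctrl_solvent and 50.9, 107 and 10.8 in NPP_herb, with means of 40.3 ± 47.1 and 56.3 ± 48.5 (0.48 ± 0.99, edgeR adjusted p = 0.958). The high libraries were thus Ctrl_solvent replicate 3 and NPP_herb replicates 1 and 2, and NPP_herb replicate 3 lay level with the low controls. The neuropeptide gene Npy (chromosome 4), nearly silent in intact sensory neurons, followed the same split, at 1.89, 1.79 and 196 CPM against 62, 173 and 1.23 (0.24 ± 2.002, adjusted p = 0.991). Gal (chromosome 1), galanin, was at 6.44, 8.71 and 32.9 CPM against 25.8, 76.5 and 7.79 (1.19 ± 0.85, adjusted p = 0.888). Sprr1a, a protein of growing axons, was at 0, 0 and 1.36 CPM against 1.18, 2.4 and 0.0285, and Gap43, a protein of growth cones, at 308, 341 and 472 against 403, 638 and 319. Ucn, the neuropeptide urocortin, was the 1 gene at an unadjusted p under 0.05, at 0.0541, 0.0271 and 0.0875 CPM against 0.537, 0.446 and 0, which is 18 reads in NPP_herb. The same split stood in NPP_solvent, with Atf3 at 83.1, 39.4 and 14 CPM and Npy at 120.4, 58.2 and 3.18, but not in Ctrl, with Atf3 at 9.69, 9.6 and 9.53 and Npy at 1.18, 1.41 and 0.62.

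Leaving out single libraries moved these values widely. The list's median ran from -0.12 without NPP_herb replicate 2 to 0.79 without Ctrl_solvent replicate 3, and was 0.87 against Ctrl_solvent replicate 2 alone. For Atf3 the log2 fold change ran from -0.39 without NPP_herb replicate 2 to 2.12 without Ctrl_solvent replicate 3, and for Npy from -1.08 to 5.43 without the same libraries. With replicate 2 as the only control they were 2.45 and 5.47, and Gal was at 2.08, with no gene called by edgeR. Among the other members with small unadjusted p, Csf1, the macrophage growth factor that injured neurons make, was at 34.6, 16.2 and 45.8 CPM against 21.9, 26.8 and 15.7, Socs3 at 14.9, 7.41 and 31.8 against 7.04, 16.4 and 4.79 and Plaur, the urokinase receptor, at 15.6, 18.3 and 12.4 against 11.1, 13.7 and 10.9. All 3 overlapped between the groups. The list's median was 0.08 for NPP_solvent minus Ctrl_solvent, 0.17 for NPP_herb minus NPP_solvent and 0.78 for NPP_herb minus Ctrl.

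**Figure D5:**
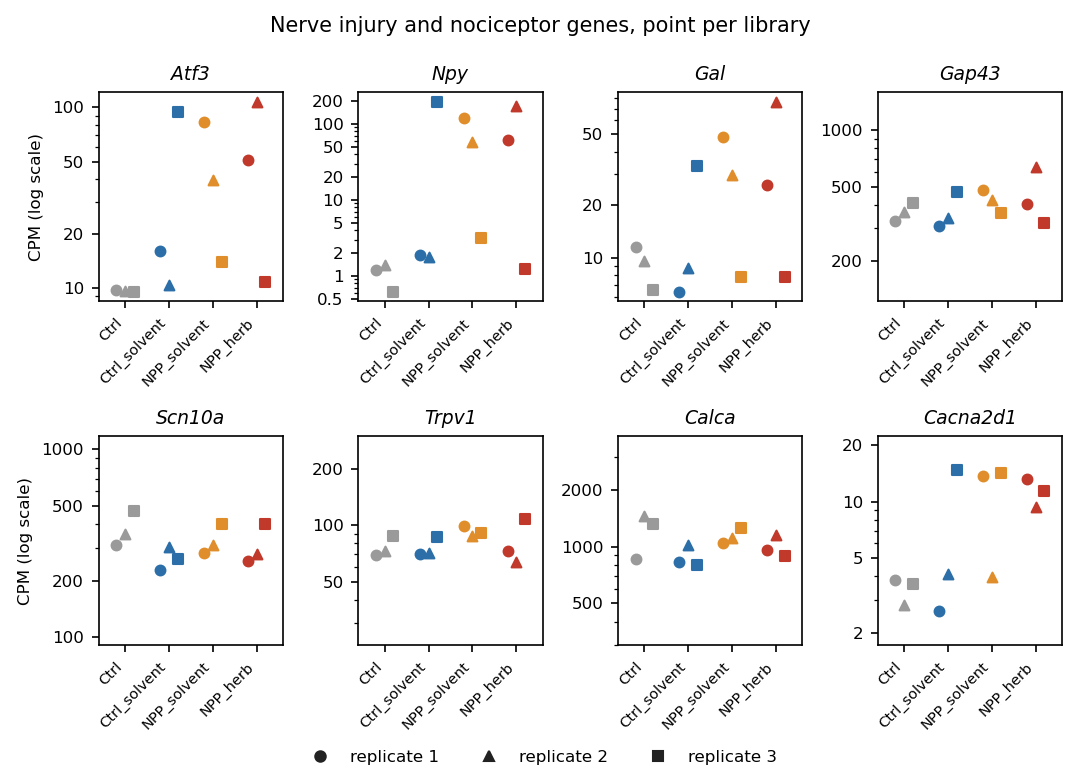
CPM (vertical axis, log scale, a different range in each panel) of 4 nerve injury genes (Atf3, Npy, Gal, Gap43) and 4 genes of nociceptors and pain treatment (Scn10a, Trpv1, Calca, Cacna2d1) in each library of 4 groups, with the marker shape giving the replicate. Atf3 is high in Ctrl_solvent replicate 3 (94.6 CPM) and in NPP_herb replicates 1 and 2 (50.9 and 107), while the nociceptor genes overlap between the groups.

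Genes of nociceptors overlapped between the groups in 25 of 27 cases. The median log2 fold change was 0.18, 23 were positive, 0 had an unadjusted p under 0.05 and 2 had groups without overlap, both higher in NPP_herb, where 4.29% of all genes were. Scn10a, the sodium channel Nav1.8 of nociceptors, was at 228, 303 and 261 CPM in Ctrl_solvent and 254, 276 and 403 in NPP_herb, and the heat and capsaicin channel Trpv1 at 70.4, 70.9 and 86.4 against 72.8, 63.4 and 108. The irritant channel Trpa1 was at 16.9, 25.2 and 35.3 CPM against 43.4, 30.5 and 45.1, and P2rx3, the ATP-gated channel, at 382, 429 and 422 against 357, 408 and 460.0. Of the neuropeptides that nociceptors release, Calca (calcitonin gene-related peptide) was at 828, 1024 and 797 CPM against 968, 1159 and 896. Tac1, the precursor of substance P, was at 99, 121 and 95.2 CPM against 119, 149 and 108 (0.25 ± 0.17, edgeR adjusted p = 0.884). The 2 genes without overlap were Scn9a, the sodium channel Nav1.7, at 182, 199 and 212 CPM against 228, 228 and 244, and Oprm1, the mu opioid receptor. Oprm1 (chromosome 1) was at 0.216, 0.514 and 0.525 CPM in Ctrl_solvent and 0.752, 0.558 and 1.6 in NPP_herb (1.21 ± 0.63, adjusted p = 0.778), and at 0.449, 0.347 and 1.25 in NPP_solvent. Ptger3, a prostaglandin receptor, had the lower mean in NPP_herb and overlapped, at 28.6, 23.2 and 30.8 CPM against 22.8, 26.4 and 23.5. The list's median was 0.19 for NPP_solvent minus Ctrl_solvent, -0.07 for NPP_herb minus NPP_solvent and -0.04 for NPP_herb minus Ctrl.

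Ion channel lists had medians of 0.14 for 30 sodium, calcium and HCN channel genes (2 higher and 0 lower at an unadjusted p under 0.05) and 0.02 for 35 potassium channel genes (0 and 0). The 2 were Scn3a, a sodium channel known to reappear after nerve injury, at 2.43, 3.63 and 4.51 CPM against 5.05, 4.96 and 5.79, and the P/Q-type calcium channel Cacna1a at 32.8, 51.5 and 44.2 against 45.8, 56.3 and 67.1. Scn3a did not overlap between the groups. Cacna2d1 (chromosome 4), the calcium channel subunit that gabapentin binds, was at 2.6, 4.09 and 14.7 CPM against 13.2, 9.37 and 11.4 (0.67 ± 0.59, edgeR adjusted p = 0.917). It was high in Ctrl_solvent replicate 3 and low in the other 2 controls, and against replicate 2 alone it was at 1.49. The potassium channels Kcna2 and Kcns1, known to fall after nerve injury, were at 229, 301 and 225 and 96.6, 98.1 and 49.7 CPM in Ctrl_solvent and overlapped NPP_herb, at 290.1, 236 and 336 and 57.2, 71 and 80.5. Kcnq5, a channel that damps repetitive firing, was at 56.9, 66.6 and 60.9 CPM against 66.7, 67.8 and 89.6, without overlap. Large-diameter neuron genes had a median of 0.02, with 1 of 20 higher at an unadjusted p under 0.05, Ntrk2, the receptor of the neurotrophin Bdnf, at 130.1, 199 and 142 CPM against 198, 179 and 233.

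The lists of opioid and GABA signalling and of glia had medians above 0. In the list of opioid and GABA signalling 17 of 19 were positive (median 0.22), 3 were higher at an unadjusted p under 0.05 and 3 had groups without overlap, higher in NPP_herb. Over all genes 1.88% were higher at that p and 4.29% higher without overlap. Oprm1, already counted with the nociceptor genes, was among the 3 without overlap. Gabra2, a subunit of the GABA-A receptor, was at 47.6, 69.2 and 65.9 CPM in Ctrl_solvent and 78.2, 72 and 94.3 in NPP_herb, and Slc12a2, the chloride importer that sets the direction of GABA currents in sensory neurons, at 84, 100.4 and 92.8 against 119, 109 and 108. Gabrg1, another subunit, was at 71, 80.1 and 68.7 CPM against 98.8, 84.7 and 78.3, with overlap. Satellite glia genes had a median of 0.25, with 10 of 15 positive, 5 higher at an unadjusted p under 0.05 and 4 without overlap, all higher in NPP_herb. Among all genes the shares were 1.88% higher at that p and 4.29% higher without overlap. The 5 negative members were Gfap (-0.42), Glul (-0.17), Sox10 (-0.06), Fabp7 (-0.06) and Apoe (-0.05), all with overlap. Kcnj10, the potassium channel with which satellite glia buffer potassium around neurons, was at 96.1, 139 and 103 CPM against 151, 134 and 165, with Ctrl_solvent replicate 2 inside the NPP_herb range. Gja1, the gap junction protein connexin 43, was at 34.4, 33.4 and 29.9 CPM against 44, 41.4 and 34, and the endothelin receptor Ednrb at 81.9, 86.6 and 99.8 against 110.3, 118 and 113. Fabp7, a marker of satellite glia, spread within both groups, at 110.4, 23.8 and 79.7 against 77.7, 97.7 and 30.3. Myelinating Schwann cell genes had a median of 0.17 with 1 of 16 higher at an unadjusted p under 0.05. That gene was Ugt8, which makes the galactolipid of myelin, at 88.7, 125 and 83.2 CPM against 178, 132 and 126. For satellite glia the median was 0.22 against Ctrl_solvent replicate 2 alone and 0.10 without NPP_herb replicate 1.

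On the higher side the naming rule gave 12 genes with adjusted p between 0.275 and 0.317, none of them a marker in the immune cell lists. Mroh2a (chromosome 9) was at 1.3, 1.16 and 1.22 CPM in Ctrl_solvent and 3.28, 3.01 and 2.28 in NPP_herb (1.21 ± 0.28, edgeR adjusted p = 0.275). Wnt2 (chromosome 4), a secreted signal of the Wnt family, was at 0.92, 0.947 and 0.744 CPM against 2.26, 1.78 and 2.43 (1.31 ± 0.31, adjusted p = 0.275). All NPP_solvent libraries also lay above all Ctrl_solvent libraries in both, at 2.09, 1.91 and 1.98 and 0.973, 1.21 and 2.17 CPM. Slc4a4, a bicarbonate transporter of glia, was at 73.1, 102 and 81.5 CPM against 128, 122 and 133 (0.58 ± 0.16, adjusted p = 0.297). The integrin subunit Itgav was at 104, 106 and 115 CPM against 164, 155 and 128 (0.46), the lipid acyltransferase Mboat2 at 92.2, 107 and 88.1 against 128, 116 and 113 (0.31), and Nudt12, which decaps NAD-capped RNA, at 17.3, 16 and 17.8 against 29.2, 20.5 and 20.4 (0.45). Acot4, a peroxisomal thioesterase, was at 1.57, 1.98 and 2.01 CPM against 3.12, 4.52 and 2.68 (0.88), Mlf1 at 5.79, 6.87 and 5.56 against 10.7, 12.5 and 6.94 (0.72) and Ccdc57 at 2.06, 2.71 and 2.54 against 4.89, 3.57 and 4.08 (0.77). Against replicate 2 alone the values ran from 0.16 for Mboat2 to 1.30 for Mroh2a, and Slc4a4, whose controls spread more, was at 0.35. All 12 were positive there, a sign that the choice of genes without overlap had fixed. With Ctrl as control the signs also stayed positive, with several values smaller by over 1.5 times, at 0.53 for Mroh2a, 0.71 for Wnt2, 0.16 for Mboat2, 0.33 for Mlf1, 0.24 for Ccdc57 and 0.36 for Acot4. Bcl6, described with the transcription factors, was also among the 12.

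The remaining pair of the 12 were mitochondrially encoded. CYTB, cytochrome b of respiratory complex III, was at 6140.4, 8522 and 7626 CPM in Ctrl_solvent and 10788, 10714 and 11219 in NPP_herb (0.55 ± 0.15, edgeR adjusted p = 0.297), and ND4, a subunit of complex I, at 4498, 6629 and 6318 against 9036, 9042 and 9167 (0.64 ± 0.19, adjusted p = 0.317). Of the 13 mitochondrially encoded protein genes 12 had a positive log2 fold change (median 0.38), 7 at an unadjusted p under 0.05 and 10 without overlap, all higher in NPP_herb. Over all genes 1.88% were higher at that p and 4.29% higher without overlap. The 13 genes belong to the same small genome, so these counts are not of separate observations. The mitochondrial share of reads moved with them, at 8.01%, 9.18% and 9.72% in Ctrl_solvent and 11.5%, 11.5% and 10.7% in NPP_herb. It was 11.5%, 9.58% and 11.3% in NPP_solvent and 10.7%, 8.44% and 10.3% in Ctrl. Nuclear copies of these genes can share reads with them. Against replicate 2 alone CYTB was at 0.37 and ND4 at 0.47, and with Ctrl as control they were at 0.27 and 0.32.

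The other lists gave few genes at an unadjusted p under 0.05, where 5.16% of all genes were lower and 1.88% higher. Cholesterol synthesis genes had 18 of 22 positive (median 0.12), 1 at an unadjusted p under 0.05, Sc5d at 131, 161 and 149 CPM against 170.0, 181 and 172, and 5 without overlap, all higher, where 4.29% of all genes were. The list's median was 0.03 for NPP_solvent minus Ctrl_solvent, 0.08 for NPP_herb minus NPP_solvent and 0.01 for NPP_herb minus Ctrl. Fibroblast and matrix genes had a median of -0.08, with the matrix protein Fbln1 lower, at 16.3, 16.5 and 19.4 CPM against 14, 9.37 and 14.4, and Sparc higher, at 1209, 1505 and 1274 against 2038, 1569 and 1523. Endothelial genes had a median of 0.05, with 1 lower, Ly6c, at 28.9, 1.84 and 18.3 CPM against 0.699, 0.781 and 1.74, a gene that leukocytes share and that split the controls like the interferon genes. Mural, immediate early, clock, glucocorticoid-responsive, heat shock, hypoxia and NRF2 and AhR target genes had medians between -0.06 and 0.08 with 0 or 1 member each at an unadjusted p under 0.05. The glucocorticoid-responsive genes Fkbp5 and Tsc22d3 were at 37.6, 31.9 and 41.1 and 218, 261 and 186 CPM in Ctrl_solvent and overlapped NPP_herb, at 36.2, 31.2 and 41.9 and 201, 203 and 243. Red blood cell genes had a median of 0.49 with 0 of 19 at an unadjusted p under 0.05, skeletal muscle genes 0.57 with 0 of 12, spinal cord genes 0.34 with 1 of 5, lower, and adipocyte genes -0.15 with 0 of 4. Leaving out 1 library turned the sign of both the red cell median, from -0.21 without NPP_herb replicate 3 to 2.88 without Ctrl_solvent replicate 2, and the skeletal muscle median, from -0.13 without NPP_herb replicate 3 to 0.75 without NPP_herb replicate 2. The hemoglobin gene Hba-a1, whose reads may be shared with near-identical copies, was at 4.82, 301 and 1.4 CPM against 51.6, 78.4 and 299, so blood genes were high in Ctrl_solvent replicate 2 and NPP_herb replicate 3 and low in Ctrl_solvent replicates 1 and 3.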

How the data were processed

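The authors deposited 1 table of read counts per gene and 1 of FPKM values (reads scaled by gene length and library size) for all 18 libraries. The submitters' processing notes name HISAT2, DESeq2 and the build mRatBN7.2, and for versions, the counting tool and its strand setting the entry is: not given in the sources used here. Per the labels' protocols, messenger RNA was captured and read in pairs. All 18 libraries were fitted together with edgeR 4.0.16 in R 4.3.3 (quasi-likelihood test, robust, TMM scaling, default low-count filter, 1 coefficient for each of 6 groups, 12 residual degrees of freedom), with Benjamini-Hochberg adjustment and a threshold of 0.05. The 8635 genes removed held at most 0.0495% of a library's reads. Depths of the 6 libraries compared, 18170925 to 36885633 reads, limit precision for genes of few reads. DESeq2 1.42.0, limma 3.58.1 with voom and limma on log2(FPKM + 0.1), other scalings and filters, other choices of libraries and a gene length covariate were alternatives. The scripts were tested on simulated data. Same-numbered libraries of the 2 groups did not deviate together, so replicate numbers were not used as pairs.

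Named genes were up to 12 per direction with the smallest unadjusted p (none had an adjusted p under 0.05) among genes without overlap between the groups, averaging 1 CPM or more and carrying a proper symbol, a set of anchor genes, and up to 4 members of each list by unadjusted p, again averaging 1 CPM or more. Genes named outside this rule, after their values were seen, include Ucn, Cd79a, Hba-a1, the resident macrophage genes, the motif examples and the negative satellite glia members other than Fabp7. Those under other observations were also named outside it. The groups compared, the gene lists and the tests were chosen with earlier results of these data known. Promoter sequences are RefSeq's on GRCr8, used without the files' coordinates.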

Additional observations from a re-analysis of the deposited data

How the results depend on the processing

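For NPP_herb against Ctrl_solvent edgeR called 0 genes with all settings other than single libraries left out, DESeq2 called 151, and leaving out 1 library at a time gave 0 to 355, where the 355 were without Ctrl_solvent replicate 2. The count at an unadjusted p under 0.05 was 621 to 1888 with 1 library left out, lowest without Ctrl_solvent replicate 1. It was 2509 with Ctrl in place of Ctrl_solvent and 413 with Ctrl_solvent replicate 2 as the only control. For NPP_solvent against Ctrl_solvent DESeq2 called 40 genes and leaving out 1 library gave 0 to 188 called and 477 to 1622 at an unadjusted p under 0.05. For NPP_herb against NPP_solvent DESeq2 called 1 gene, 489 had an unadjusted p under 0.05 with no low-count filter, and 278 to 577 with 1 library left out. The library distance ran from -0.00498 to 0.172 with 1 library left out, negative without Ctrl_solvent replicate 1. With Ctrl as control the signs of Cd8a (0.60), Isg15 (0.66), Irf7 (0.50), Cxcl10 (0.15) and Cd68 (0.055) turned, with Ctrl_solvent replicate 2 alone those of Isg15 (0.32) and Irf7 (0.31), and with 1 library left out Atf3 ran from -0.39 to 2.12 and Npy from -1.08 to 5.43. The cause was not tested. Of 659 values of 37 genes under the alternatives, 612 kept direction and side of the threshold, 36 passed the threshold that the main value had missed and 11 turned. The 37 include the genes chosen for groups without overlap, whose sign was largely fixed when a library was left out. No main value passed the threshold, so the 612 are no separate support for a difference. Of 558 values of list medians 45 moved by more than the spread between replicates. With a replicate block, edgeR called 0 genes and 1197, 929 and 279 had an unadjusted p under 0.05 in the 3 comparisons. Same-numbered libraries correlated at 0.0112, -0.111 and -0.122 in their deviations, none best with its own number. The alternatives with Ctrl or with Ctrl_solvent replicate 2 alone were chosen after seeing the data. At depths of 18170925 to 36885633 reads, genes with a few reads in a group, such as Cd3e and Tnf, are known only to the order of their size.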

Other observations

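Genes of MHC class I presentation, by which every cell shows peptides to cytotoxic T cells, were not in the lists above and were gathered after the data had been seen. All 18 tested had a negative log2 fold change of NPP_herb minus Ctrl_solvent (median -1.71), 18 at an unadjusted p under 0.05 and 5 without overlap, all lower, and edgeR called 0 of them. Over all genes 5.16% were lower at that p and 5.01% lower without overlap. Because the genes were gathered with these data known, the counts describe them and are no support for a difference. B2m, the light chain of MHC class I, was at 2939.9, 1029.6 and 2764 CPM in Ctrl_solvent and 961, 841 and 888 in NPP_herb. Tap1, the transporter that brings peptides into the endoplasmic reticulum, was at 152, 14.6 and 141 CPM against 12, 16 and 15.1, the immunoproteasome subunit gene Psmb8 at 81.9, 8.15 and 67.2 against 5.37, 6.8 and 6.08, and Nlrc5, the regulator that switches these genes on, at 30.6, 2.68 and 30.4 against 2.36, 2.79 and 3.42. Ctrl_solvent replicate 2 lay near NPP_herb in each, and against it alone the median was -0.12. It was -0.87 for NPP_solvent minus Ctrl_solvent and -0.71 for NPP_herb minus NPP_solvent.

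Guanylate-binding proteins and other genes linked to interferon gamma, gathered in the same way, had 17 of 17 tested genes negative, 14 at an unadjusted p under 0.05, and a median of -3.004, or 0.11 against replicate 2 alone. Over all genes 5.16% were lower at that p, and these counts too only describe the genes gathered. Gbp5 was at 79, 6.71 and 94.9 CPM in Ctrl_solvent, 11.5, 7.08 and 7.68 in NPP_herb and 20.5, 18.8 and 9.13 in NPP_solvent. Some members, among them Irf1, Socs1 and Il12rb1, also stand in the report. Of 15 chemokine receptors 11 passed the filter and 9 were negative (median -0.40). At an unadjusted p under 0.05 there were 5, all lower, where 5.16% of all genes were. A rare receptor can pass the filter through a group where it is high, so these counts describe only the 11 tested. The median was -0.19 against replicate 2 alone and 0.02 for NPP_herb minus NPP_solvent. Ccr2, the receptor of Ccl2 on monocytes, was at 5.03, 2.33 and 5.64 CPM against 2.15, 1.11 and 2.4, with overlap between the groups.

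The respiratory chain gave different values by genome. The 13 mitochondrially encoded protein genes had a median of 0.38, while 26 nuclear-encoded subunit genes had a median of -0.09, with 22 negative and 0 at an unadjusted p under 0.05. ND5, a subunit of complex I, was at 776, 1285 and 1363 CPM in Ctrl_solvent, 2399.7, 1967 and 3264 in NPP_herb, 2309, 1021 and 3147 in NPP_solvent and 1653, 701 and 1759.7 in Ctrl. All NPP_herb libraries lay above all Ctrl_solvent libraries, and NPP_solvent spread over both ranges.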
